A study of Mus musculus with 40 samples.

Results

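Monocyte and macrophage state genes are described here in the rib after large-scale resection, across 5 stages and both ages. They are 8 genes of the 21204 in the filtered count table, chosen by name: Cd68, Adgre1, Mrc1, Arg1, Nos2, Chil3, Ly6c2 and Retnla. Bulk RNAseq was made from pieces of rib tissue of female wild type C57BL/6 mice from which a 3 mm piece of rib had been removed. Skeletally immature mice (7 weeks old) and skeletally mature mice (more than 10 months old) were sampled at baseline (BL), on the day of resection (D0), and at 2, 5 and 14 days post-resection (dpr). Each of the 10 groups had 4 libraries, apart from mature mice at 5dpr, where n = 3 because replicate 2 was not analysed here. The baseline pieces are labelled as bone, bone marrow and intercostal muscle, and the later ones as callus. In every comparison with baseline, this difference in tissue, marrow included, therefore cannot be told apart from stage. The labels place the baseline pieces after resection, whereas the study's methods define baseline as the state before it, and the latter reading was used. Whether each library came from a separate mouse is not stated, so that p-values measure the spread between libraries.

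Monocytes leave the bone marrow through the blood, enter wounded tissue and become macrophages, which clear debris and then take part in rebuilding. In mice, the inflammatory monocyte carries Ly6C on its surface and falls in Ly6C as it matures. Macrophages driven by interferon and bacterial products are often called classically activated and make nitric oxide from arginine with the enzyme encoded by Nos2, whereas interleukin 4 and interleukin 13 drive an alternative state in mice marked by Arg1, Mrc1, Chil3 and Retnla, in which arginase 1 turns the same arginine into ornithine. None of these genes belongs to macrophages alone, since granulocyte precursors in the marrow make Chil3 and Ly6C, fat tissue makes Retnla, and osteoclasts carry Cd68.

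In the GRCm38 build, with GENCODE annotation, the general macrophage genes are Cd68 (chromosome 11, 69664213 to 69666153, minus strand), Adgre1 (chromosome 17, 57358691 to 57483527, plus strand) and Mrc1 (chromosome 2, 14229392 to 14332057, plus strand). The arginine enzymes are Arg1 (chromosome 10, 24915221 to 24927484, minus strand) and Nos2 (chromosome 11, 78920787 to 78960254, plus strand). The remaining members are Chil3 (chromosome 3, 106147554 to 106167564, minus strand), Ly6c2 (chromosome 15, 75108158 to 75111970, minus strand) and Retnla (chromosome 16, 48842551 to 48844461, plus strand). No exon of another annotated gene overlaps an exon of any of the 8. Ly6c2 and Chil3 each have a close copy next to them, and 13.9% of the 50-base windows of the Ly6c2 transcripts are also in Ly6c1, and 16.9% of those of Chil3 are also in Chil4, so that reads from those stretches cannot be assigned with certainty. Retnla shares no such window with Retnlg or Retn, and neither does Arg1 with Arg2.

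Promoter sequences are shown for all members for which one was available, namely Retnla, Chil3, Ly6c2, Cd68 and Mrc1. Among these, Chil3 moved with Ly6c2 and Cd68 with Mrc1, while Retnla followed none of the others. RefSeq promoters of 300 bases (250 before the start and 50 after it, GRCm38.p6, printed in the direction of transcription) were given for 5 of the 8 members. Each was searched on both strands for STAT6 (TTC and GAA with any 4 bases between them), C/EBP (TTGCNNAA), PU.1 (GAGGAAGT) and AP-1 (TGANTCA) letters and for NF-kB by its usual consensus, and matches are in capitals. Among 32851 promoters of this length, 6.95% hold the STAT6 letters, 10.8% the C/EBP letters, 3.2% the PU.1 letters, 7.81% the AP-1 letters and 8.46% the NF-kB consensus. STAT6 carries the interleukin 4 signal to DNA, and PU.1 and C/EBP factors set the myeloid lineage.
Retnla, chr16:48842359-48842658, plus strand: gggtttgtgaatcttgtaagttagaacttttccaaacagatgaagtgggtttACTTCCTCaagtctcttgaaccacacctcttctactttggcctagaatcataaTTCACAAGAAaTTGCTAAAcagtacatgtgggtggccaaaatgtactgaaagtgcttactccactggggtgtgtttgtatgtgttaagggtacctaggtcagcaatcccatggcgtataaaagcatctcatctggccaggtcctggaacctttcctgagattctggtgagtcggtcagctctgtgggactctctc
Chil3, chr3:106167515-106167814, minus strand: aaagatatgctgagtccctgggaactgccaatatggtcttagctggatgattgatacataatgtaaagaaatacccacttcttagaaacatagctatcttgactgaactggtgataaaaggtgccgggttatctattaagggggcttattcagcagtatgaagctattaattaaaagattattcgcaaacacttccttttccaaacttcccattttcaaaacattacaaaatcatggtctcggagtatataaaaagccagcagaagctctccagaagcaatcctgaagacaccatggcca
Ly6c2, chr15:75111922-75112221, minus strand: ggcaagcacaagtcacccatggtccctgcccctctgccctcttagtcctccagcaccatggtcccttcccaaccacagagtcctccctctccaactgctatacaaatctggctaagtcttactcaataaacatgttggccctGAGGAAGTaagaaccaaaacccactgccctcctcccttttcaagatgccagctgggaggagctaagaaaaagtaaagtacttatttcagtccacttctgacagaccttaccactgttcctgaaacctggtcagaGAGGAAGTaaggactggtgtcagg
Cd68, chr11:69666121-69666420, minus strand: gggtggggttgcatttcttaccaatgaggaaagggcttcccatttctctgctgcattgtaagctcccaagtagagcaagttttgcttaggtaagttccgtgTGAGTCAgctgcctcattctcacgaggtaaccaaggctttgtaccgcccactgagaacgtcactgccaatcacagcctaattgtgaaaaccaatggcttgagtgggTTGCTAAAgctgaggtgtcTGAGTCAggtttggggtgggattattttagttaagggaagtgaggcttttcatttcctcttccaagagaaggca
Mrc1, chr2:14229164-14229463, plus strand: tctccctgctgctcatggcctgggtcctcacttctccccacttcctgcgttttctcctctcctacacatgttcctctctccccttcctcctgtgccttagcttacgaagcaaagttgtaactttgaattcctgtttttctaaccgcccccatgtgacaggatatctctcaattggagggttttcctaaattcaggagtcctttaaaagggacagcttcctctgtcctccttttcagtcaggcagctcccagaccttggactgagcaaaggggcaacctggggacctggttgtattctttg
Positions are counted from the RefSeq start, which in Retnla lies downstream of the GENCODE start given above. In Retnla, the STAT6 letters start 145 bases before that start, the C/EBP letters lie next to them at 134 bases, and the PU.1 letters are at 198 bases. Ly6c2 held the PU.1 letters at 108 bases before the start and again after it in the entry printed. A second RefSeq entry of Ly6c2 has another start, and there the same letters lie 142 and 8 bases before it. Cd68 held the AP-1 letters at 149 and at 24 bases before the start and the C/EBP letters at 43 bases. Chil3 and Mrc1 held none of these letters in this window. These matches describe sequence and do not show binding.

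The shallowest library held 6057756 counts and the deepest 21537070 (median 9087417). Levels are given as CPM, the reads of a gene per 1000000 reads of its library after TMM scaling, which corrects libraries for differences in composition. For skeletal muscle, 20 marker genes took together between 48150.8 and 116009 CPM at baseline, between 122745 and 255158 CPM at D0, and between 15353.7 and 49625.5 CPM from 2 to 14dpr. All 20 were lower than baseline at 2dpr at both ages, 20 in immature and 14 in mature mice at 5dpr, and 20 in immature and 17 in mature mice at 14dpr, while none was called between 5 and 14dpr at either age. At D0, 19 were higher than baseline in mature mice and 1 in immature mice. Their part in the changes below was not tested beyond a fit with the muscle score as a covariate. Because the muscle markers differed between stages, that fit cannot separate muscle content from stage. A call lost in it is therefore not a measure of the part of muscle. In bulk tissue, fewer cells of a type and less RNA per cell cannot be told apart.

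The members followed 3 courses. Cd68, Adgre1, Mrc1, Arg1 and Nos2 were higher than baseline at 2dpr at both ages and still higher at 14dpr, although at different shares of their peak. Chil3 and Ly6c2 started high and had lower means at D0 than at baseline and at 2dpr. They did not differ from baseline past the threshold at 2dpr, although the immature Chil3 mean was 371 CPM against 729 CPM at baseline. At 14dpr, Chil3 and Ly6c2 were below baseline at both ages. Retnla was highest at D0 at both ages. The plot of levels gives all libraries.

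**Figure D1:**
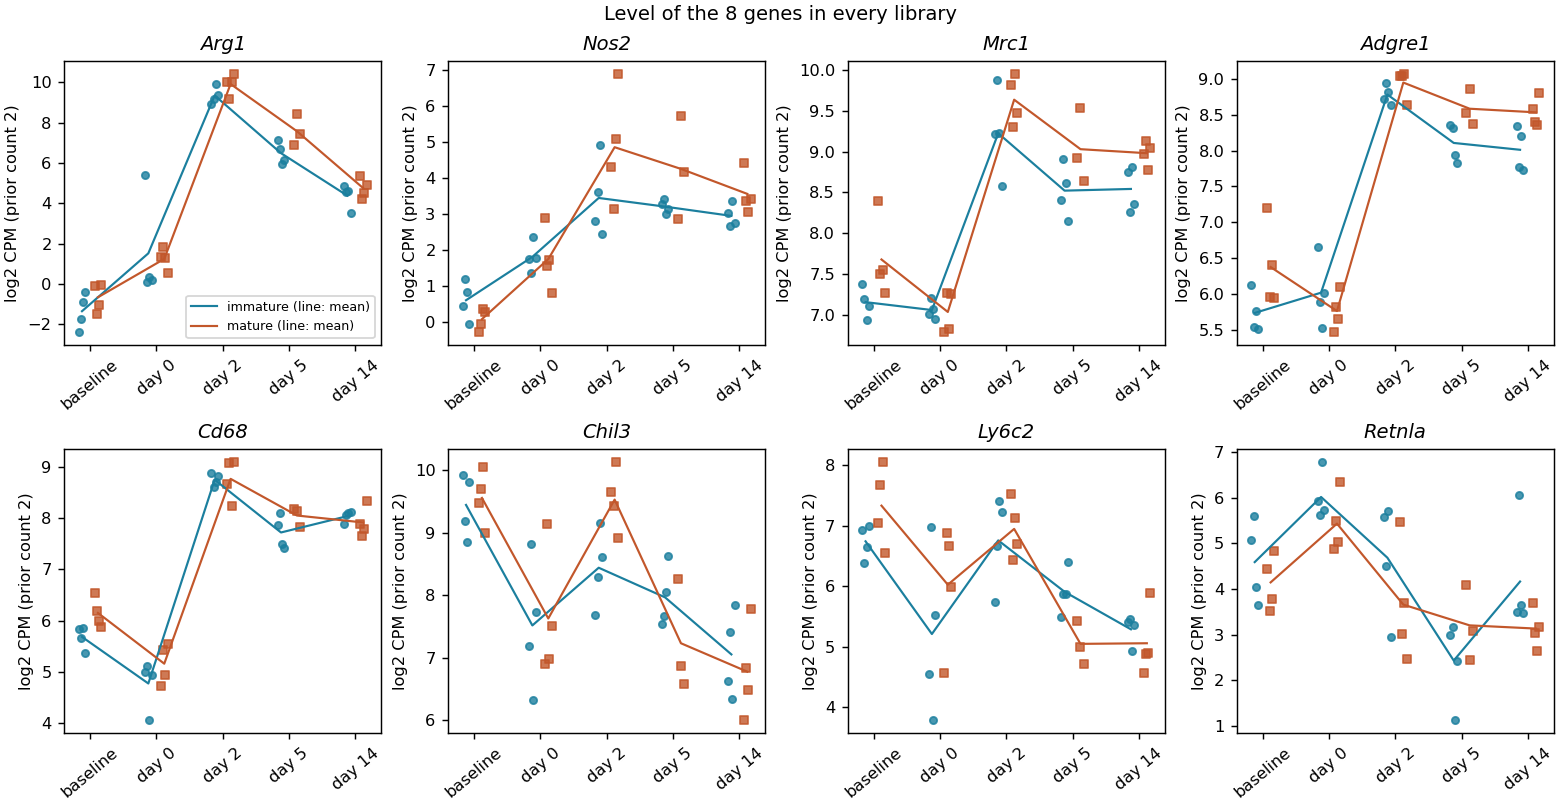
Level of the 8 genes (log2 CPM with a prior count of 2, vertical axis) at baseline and on days 0, 2, 5 and 14 (horizontal axis), with circles for immature and squares for mature libraries and lines through the group means. Arg1, Nos2, Mrc1, Adgre1 and Cd68 rise at day 2, Chil3 and Ly6c2 end below baseline, and a single immature day 0 library (42.7 CPM) stands above the other 3 for Arg1.

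Compared per length (CPM per kilobase of exon), Chil3 was the highest member at baseline at both ages, with a level of 447 ± 150 (SD, n = 4) in immature and 477 ± 140 (SD, n = 4) in mature mice. Arg1 was among the lowest 2 members at that stage, at 0.114 ± 0.115 in immature and 0.222 ± 0.139 in mature mice, beside Nos2 at 0.315 ± 0.127 and 0.197 ± 0.0484. At 2dpr in immature mice, the highest per-length levels were those of Cd68 (345 ± 29.4), Arg1 (303 ± 93.7) and Chil3 (227 ± 95). In mature mice at 2dpr, the order was Chil3 (474 ± 164), Arg1 (454 ± 145) and Cd68 (358 ± 95.1), and these neighbours lay within each other's spread. At 14dpr, Cd68 was the highest member at both ages (210 ± 14.8 and 196 ± 43.1), whereas Arg1 stood at the seventh rank (9.84 ± 3.41 and 12.6 ± 4.43). Nos2 was the lowest member at 2 and 14dpr at both ages, with 3.04 ± 2.55 and 10.2 ± 11.3 at 2dpr.

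Cd68 encodes a lysosomal glycoprotein of macrophages and osteoclasts. In immature mice, its level was 56.8, 50.3, 58.0 and 41.2 CPM in the 4 baseline libraries, 31.5, 34.1, 16.5 and 30.2 CPM at D0, and 474, 390.1, 418 and 453 CPM at 2dpr. It then was 234, 276, 181 and 170.2 CPM at 5dpr and 237, 269, 274 and 277 CPM at 14dpr. Every stage was therefore separated from baseline without overlap, below it at D0 and above it from 2dpr on. The edgeR log2 fold change from baseline was -0.88 ± 0.21 (SE, adjusted p = 0.00833) at D0, 3.07 ± 0.22 (adjusted p = 3.07e-13) at 2dpr, 2.06 ± 0.21 (adjusted p = 2.27e-09) at 5dpr and 2.36 ± 0.22 (adjusted p = 1.58e-10) at 14dpr. The immature D0 call was lost without replicate 3 (-0.65, adjusted p = 0.0736). In mature mice, the 4 libraries held 92.7, 73.0, 63.1 and 58.8 CPM at baseline and 406, 545, 302 and 549.8 CPM at 2dpr. At 14dpr they held 236, 201, 223 and 324 CPM, again all above baseline. The log2 fold changes in mature mice were -0.98 ± 0.21 (adjusted p = 0.000977) at D0, 2.65 ± 0.22 (adjusted p = 6.28e-12) at 2dpr, 1.90 ± 0.22 (adjusted p = 2.47e-08) at 5dpr and 1.78 ± 0.21 (adjusted p = 2.77e-08) at 14dpr. Osteoclast markers moved as well, with 8 genes that together held 316 to 742 CPM at 2dpr and 2305 to 5550.2 CPM at 14dpr in immature mice, while mature mice had 228 to 489.9 and then 1697 to 2511 CPM. The part of osteoclasts in the Cd68 level at 14dpr was not tested.

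Adgre1 encodes F4/80, the antigen by which mouse macrophages are usually stained. Its level in immature mice was 45.3 to 69.6 CPM at baseline, 397 to 493 CPM at 2dpr, 226 to 326 CPM at 5dpr and 212 to 325 CPM at 14dpr. Mature mice had 61.5 to 146 CPM at baseline, 398 to 537 CPM at 2dpr, 330.4 to 466 CPM at 5dpr and 328 to 445 CPM at 14dpr. No library after D0 fell into the baseline range of its age. Against baseline, Adgre1 was 8.19-fold higher at 2dpr in immature mice (log2 fold change 3.03 ± 0.24, adjusted p = 2.65e-12) and 5.62-fold higher in mature mice (2.49 ± 0.23, adjusted p = 1.47e-10). It was still 4.87-fold higher at 14dpr in immature mice (2.28 ± 0.23, adjusted p = 1.73e-09) and 4.22-fold higher in mature mice (2.08 ± 0.23, adjusted p = 7.18e-09). Between 5 and 14dpr the estimate moved by -0.09 (95% interval -0.54 to 0.36) in immature and -0.06 (-0.54 to 0.43) in mature mice.

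Mrc1 encodes CD206, a mannose receptor used as a marker of alternative activation and of tissue-resident macrophages. Its baseline level was the highest of the 5 raised genes in CPM, at 144 ± 18.3 in immature and 215 ± 82.9 in mature mice (SD, n = 4). As a fold change, though not in CPM, its rise at 2dpr was the smallest of them. At 2dpr it held 592, 939, 599.6 and 382 CPM in immature libraries and 898, 631, 987 and 709.8 CPM in mature ones, with no overlap with baseline at either age. Against baseline this was a log2 fold change of 2.13 ± 0.24 in immature mice (adjusted p = 5.88e-09), and of 1.91 ± 0.23 in mature ones (adjusted p = 4.02e-08). At 5dpr the log2 fold changes from baseline were 1.38 ± 0.23 and 1.33 ± 0.24, and at 14dpr 1.39 ± 0.23 (adjusted p = 1.11e-05) and 1.23 ± 0.23 (adjusted p = 5.6e-05). With the muscle score as a covariate, the immature 14dpr change was 0.82 (adjusted p = 0.191).

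Arg1, the gene of arginase 1, was close to absent at baseline. Its 4 baseline libraries held 0, 1, 3 and 6 reads in immature mice and 7, 2, 3 and 7 reads in mature mice. At 2dpr they held 489.9, 570.1, 967 and 674 CPM (4680 to 11551 reads) in immature mice and 1053, 583, 1046 and 1368 CPM in mature mice. The ratio of the group means was 2655 in immature mice, with a counting interval for the pooled baseline reads of 1385 to 5312 (95%, exact Poisson, counting error only), and 2043 in mature mice (1383 to 3587). The edgeR log2 fold change, which depends on how few baseline reads there were, was 11.26 ± 1.02 in immature mice (adjusted p = 6.12e-11), against 11.03 ± 0.97 in mature ones (adjusted p = 3.19e-11).

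Arg1 then fell at each step. It stood at 141, 103, 62.1 and 72.0 CPM at 5dpr and 29.0, 23.1, 24.4 and 11.2 CPM at 14dpr in immature mice. In mature mice, it was 117, 348 and 171 CPM at 5dpr and 40.9, 18.2, 22.8 and 30.2 CPM at 14dpr. No library of one stage overlapped with the stage before it. From 2 to 5dpr, the log2 fold change was -2.84 ± 0.61 (adjusted p = 0.00225) in immature and -2.26 ± 0.66 (adjusted p = 0.0186) in mature mice. From 5 to 14dpr it was -2.92 ± 0.65 (adjusted p = 0.00552) in mature mice. In immature mice that second step was -2.10 ± 0.61 (adjusted p = 0.0487), which passed the threshold by little: DESeq2 gave an adjusted p of 0.0615, and leaving out any of the 8 libraries gave 0.0547 to 0.176. The mature step did not pass without replicate 3 of 5dpr (-2.36, adjusted p = 0.0633), the library with 348 CPM, and the mature fall from 2 to 5dpr did not pass without replicate 1 or 4 of 5dpr, where the highest adjusted p was 0.102. Even so, the 14dpr level was 86.1 times the baseline mean in immature mice (counting interval 45.0 to 172) and 56.6 times in mature mice (38.3 to 99.3), with adjusted p = 5.94e-06 and 3.62e-06.

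One immature D0 library stood apart for Arg1. Replicate 1 held 42.7 CPM (286 reads), whereas the other 3 held 0.863, 1.09 and 0.974 CPM. With all 4, Arg1 was higher at D0 than at baseline (log2 fold change 5.31 ± 1.05, adjusted p = 0.00212), and without replicate 1 the change was 1.82 (adjusted p = 0.206). With D0 as the reference in place of baseline, the immature 14dpr change was 1.00 (adjusted p = 0.232). In mature mice, D0 libraries held 1.25 to 3.37 CPM against 0.168 to 0.785 CPM at baseline, a log2 fold change of 2.26 ± 1.12 that did not pass the test (adjusted p = 0.149).

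Nos2, the inducible nitric oxide synthase gene, rose far less and with a wider spread. Immature libraries held 1.14, 2.06, 1.59 and 0.766 CPM at baseline (8 to 20 reads) and 6.80, 11.9, 29.7 and 5.23 CPM at 2dpr. Mature libraries held 0.629, 0.754, 1.08 and 1.01 CPM at baseline and 19.7, 8.57, 33.3 and 118 CPM at 2dpr. Replicate 3 in immature and replicate 4 in mature mice stood highest at that stage. The log2 fold change at 2dpr was 3.28 ± 0.66 (adjusted p = 0.000137) in immature and 5.68 ± 0.71 (adjusted p = 6.32e-08) in mature mice. Without the highest mature library it was 4.54 (adjusted p = 3.12e-07). At 5dpr the libraries held 7.70 to 10.4 CPM in immature mice and 7.08, 51.9 and 17.8 CPM in mature mice, and at 14dpr 6.08 to 9.98 and 8.02 to 21.0 CPM. Those later levels were all above the baseline range, with log2 fold changes at 14dpr of 2.45 ± 0.66 (adjusted p = 0.00408) and 3.81 ± 0.70 (adjusted p = 4.25e-05). Against D0, where Nos2 held 2.34 to 4.92 CPM, the immature change was 1.38 (adjusted p = 0.0732) at 5dpr and 1.14 (adjusted p = 0.146) at 14dpr.

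How many members passed the test can be read against all genes. At 2dpr, 5 of the 8 were higher than baseline and none was lower at either age, whereas 18.7% of all genes were higher in immature and 19.3% in mature mice. At 5dpr, 5 were higher and 2 lower at each age, beside 15.7% and 13.7% of all genes in immature and 17.3% and 15.4% in mature mice. At 14dpr the counts were again 5 higher and 2 lower at each age, beside 16.4% and 15.1% of all genes in immature and 17.1% and 16.4% in mature mice. At D0, immature mice had 1 member higher and 2 lower (all genes 5.98% and 4.66%), and mature mice 1 higher and 4 lower (all genes 11.9% and 10.6%). The lower genes in mature mice were Cd68, Adgre1, Mrc1 and Chil3, and the higher gene was Nos2 (2.04 ± 0.73, adjusted p = 0.0405), whose call was lost without any of 6 of the 8 libraries. The Adgre1 and Mrc1 calls were each lost without replicate 1 of baseline or replicate 1 or 3 of D0 (edgeR adjusted p up to 0.284 and 0.24). With the muscle score as a covariate, none of the 5 genes called in mature mice passed (adjusted p 0.189 to 0.772). The 5 higher members at 2, 5 and 14dpr passed in every fit that left out a library, at both ages.

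**Figure D2:**
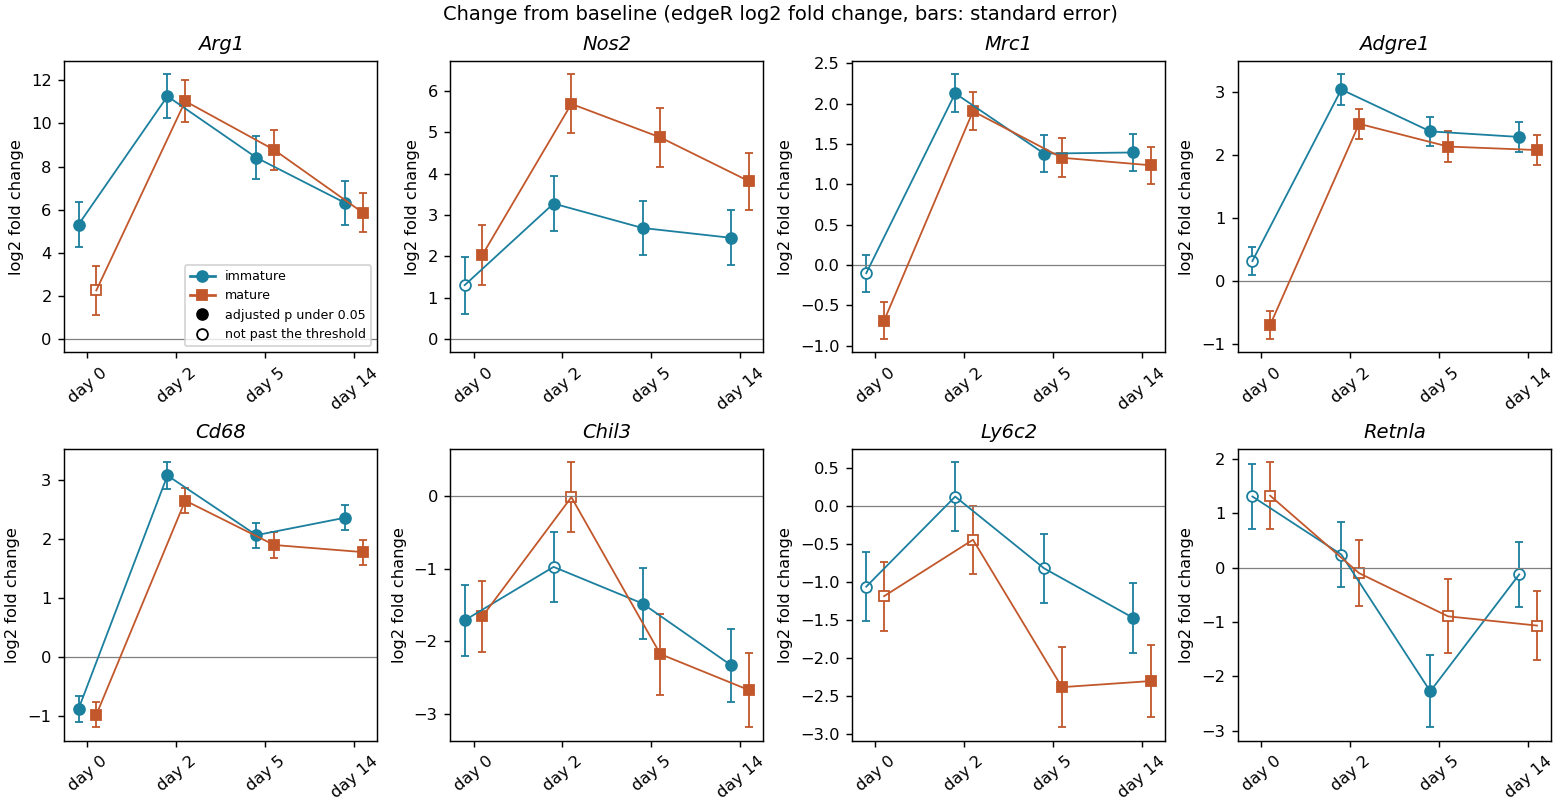
Change from baseline in each of the 8 genes (edgeR log2 fold change, vertical axis, with standard errors) on days 0, 2, 5 and 14, for immature (circles) and mature (squares) mice, with filled symbols for an adjusted p under 0.05. Arg1, Nos2, Mrc1, Adgre1 and Cd68 are filled and above 0 from day 2 to day 14 at both ages, and Chil3 and Ly6c2 are filled and below 0 at day 14.

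The time for which each gene stayed raised was measured as the share of its day 2 rise over baseline that was left, from the group means in CPM and with no test. Arg1 kept the least, namely 13.9% in immature and 20.9% in mature mice at 5dpr and 3.21% and 2.72% at 14dpr. Leaving out any library moved the 14dpr shares between 2.86% and 3.75% and between 2.3% and 3.08%. In immature mice, Cd68 kept 42.9% at 5dpr and 55.7% at 14dpr, Mrc1 kept 47.6% and 48.4%, and Adgre1 kept 58.1% and 53.8%. The mature shares were 51.7% and 46.0% for Cd68, 55.0% and 49.3% for Mrc1, and 73.1% and 69.6% for Adgre1. For these 3 genes, the leave-one-out ranges of 5 and 14dpr overlapped within each age, apart from Cd68 in immature mice (37.6% to 46.8% and then 53.6% to 58.1%). Such ranges show the weight of single libraries and are not a measure of error. By edgeR, the immature Cd68 change from 5 to 14dpr did not pass the threshold (log2 fold change 0.30 ± 0.20, adjusted p = 0.605). Nos2 had shares of 63.5% and 51.7% in immature and 56.2% and 26.1% in mature mice, but they rested on single libraries. Without replicate 3 of 2dpr, the immature shares were 116% and 94.4%, and without replicate 4 of 2dpr, the mature shares were 126% and 58.5%. Without replicate 3 of 5dpr, the mature share at 5dpr was 26.3%.

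**Figure D3:**
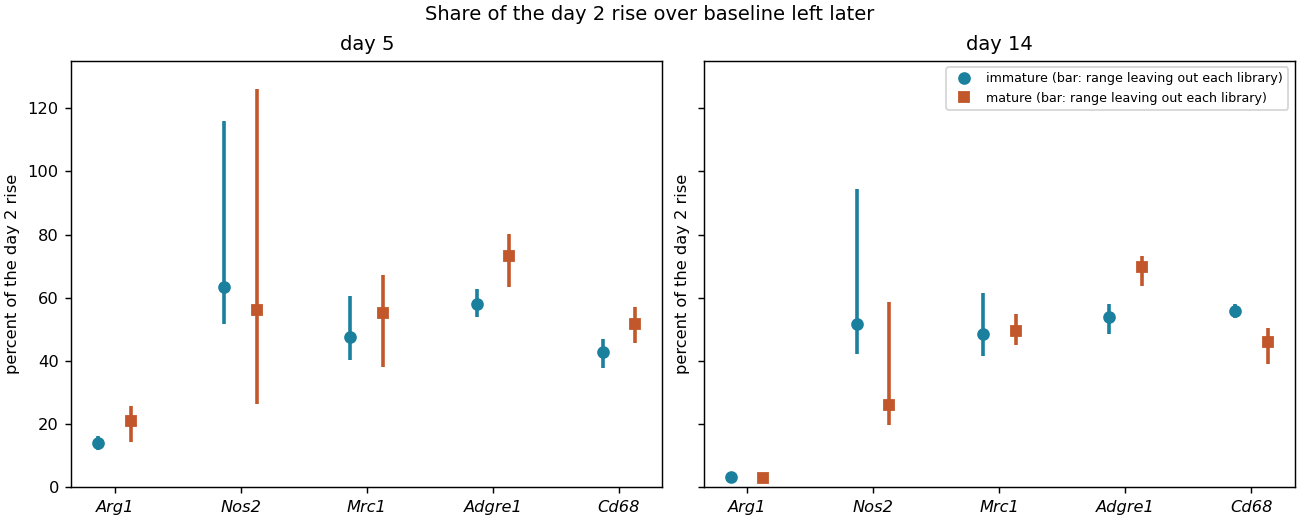
Percent of the day 2 rise over baseline (vertical axis) left on day 5 and day 14 in the 5 genes raised at day 2, for immature (circles) and mature (squares) mice, with bars for the range when each library is left out. Arg1 is at 3.21% and 2.72% on day 14, the bars of Nos2 reach 116% and 126% on day 5, and the other 3 genes lie between 42.9% and 73.1% on both days.

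Between consecutive stages, 4 members were lower at 5dpr than at 2dpr in immature mice (Arg1, Mrc1, Retnla and Cd68), where 3.68% of all genes were lower, and 4 in mature mice (Arg1, Chil3, Ly6c2 and Cd68), where 6.38% were. Cd68 fell by 1.01 ± 0.21 (log2, adjusted p = 0.00126) in immature and by 0.75 ± 0.22 (adjusted p = 0.0196) in mature mice. The immature Mrc1 difference was -0.75 ± 0.23 (adjusted p = 0.0352), and it passed in 2 of 8 fits that left out a library. Retnla fell by 2.52 ± 0.66 in immature mice (adjusted p = 0.0129), a call lost without replicate 3 of 2dpr or replicate 4 of 5dpr. In mature mice, Chil3 fell by 2.17 ± 0.56 (adjusted p = 0.00704) and Ly6c2 by 1.94 ± 0.52 (adjusted p = 0.00937). None of the 4 mature changes passed without replicate 4 of 5dpr (adjusted p 0.0634 to 0.119) or with the muscle score as a covariate (adjusted p 0.116 to 0.338), and Cd68 was also lost without replicate 2 or 4 of 2dpr. From 5 to 14dpr, Arg1 was the single member called at each age, and it was lower (all genes lower 1.45% in immature and 2.23% in mature mice).

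Ly6c2 encodes Ly6C2, a surface protein of inflammatory monocytes and their marrow precursors. At baseline it held 122, 83.8, 100.1 and 128 CPM in immature and 132, 205, 266 and 94.0 CPM in mature libraries. At D0 it held 13.7 to 126 CPM in immature mice (log2 fold change -1.06 ± 0.46, adjusted p = 0.133). Mature mice had 23.4 to 118 CPM at D0 (-1.18 ± 0.46, adjusted p = 0.0581). At 2dpr it held 53.1, 101, 170.4 and 149.8 CPM and 184, 86.8, 139.6 and 104 CPM, so that both ages overlapped with their baseline. The log2 fold change was 0.13 (95% interval -0.78 to 1.04) and -0.44 (-1.35 to 0.47). At 14dpr it held 30.3 to 43.6 CPM in immature and 23.4 to 59.3 CPM in mature mice, below all baseline libraries. The log2 fold change was -1.47 ± 0.46 (adjusted p = 0.0139) in immature and -2.30 ± 0.47 (adjusted p = 0.000215) in mature mice. The immature call was lost with the muscle score as a covariate (-2.22, adjusted p = 0.0808) and with the replicate block (-1.23, adjusted p = 0.0676). In mature mice, Ly6c2 was already lower at 5dpr (26.2 to 42.8 CPM, -2.38 ± 0.53, adjusted p = 0.000601), and the immature change at 5dpr was -0.82 ± 0.45 (adjusted p = 0.185). The neighbouring copy Ly6c1, which endothelial cells express, held 44.3 ± 11.9 CPM at baseline and 108 ± 30.3 CPM at 14dpr in mature mice (SD, n = 4).

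Chil3 encodes Ym1, a chitinase-like protein without chitinase activity made by macrophages and by neutrophil precursors. Baseline libraries held 463 to 970.4 CPM in immature and 512 to 1060 CPM in mature mice. At D0 they held 146, 453, 80.0 and 211 CPM in immature mice (log2 fold change -1.71 ± 0.49, adjusted p = 0.0242) and 119, 561, 126 and 181 CPM in mature mice (-1.66 ± 0.49, adjusted p = 0.0135). The immature call was lost without replicate 2 or 6 of baseline or replicate 1 or 3 of D0, and the mature call without replicate 1 or 3 of D0. At 5dpr Chil3 was lower than baseline in mature mice (-2.18 ± 0.56, adjusted p = 0.00258) and in immature mice (-1.48 ± 0.49, adjusted p = 0.0202), the latter call being lost without replicate 2 or 6 of baseline or replicate 2 or 3 of 5dpr. At 2dpr the immature libraries held 205, 314, 573 and 392 CPM and the mature ones 805, 685, 1121 and 482 CPM, the latter overlapping with their baseline on both sides. The log2 fold change at 2dpr was -0.97 (95% interval -1.96 to 0.01) in immature and -0.01 (-0.98 to 0.96) in mature mice. By 14dpr the level was 80.6 to 229 CPM and 64.1 to 219 CPM, below every baseline library. The 14dpr level was 5.05-fold below baseline in immature mice (-2.34 ± 0.51, adjusted p = 0.000416) and 6.39-fold below it in mature ones (-2.68 ± 0.51, adjusted p = 8.22e-05). Chil4, its copy, had 36 reads at baseline and 1 read at 14dpr over the 4 mature libraries.

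Against D0 rather than baseline, the declines of Chil3 and Ly6c2 did not pass the test at 14dpr: Chil3 changed by -0.62 (adjusted p = 0.34) and -1.02 (adjusted p = 0.0968), and Ly6c2 by -0.41 (adjusted p = 0.525) and -1.12 (adjusted p = 0.053), in immature and mature mice. Against D0, Chil3 at 5dpr in immature mice changed by 0.23 (adjusted p = 0.749), with the opposite sign. Neutrophil markers were lower than baseline as well, also at 2dpr. Of 12 such genes, summed levels were 7097 to 11706 CPM at baseline, 1389 to 3531 CPM at 2dpr and 1599 to 3259 CPM at 14dpr in immature mice, whereas mature mice had 8691 to 21967 CPM, 906 to 5756 CPM and 1341 to 4807 CPM at these stages. At D0, 4 of the 12 were lower in immature and 8 in mature mice. At 2dpr, when neither Chil3 nor Ly6c2 was called, 10 of the 12 were lower at each age, with medians of -1.99 and -2.01, and at 5dpr 3 were lower in immature and all 12 in mature mice. At 14dpr, 10 of the 12 were lower than baseline in immature and 11 in mature mice, with list medians of -1.92 and -2.32 and medians of all genes of -0.04 and -0.03. All 12 had reads in each group, Mpo, Elane and Ly6g among them, and their part in the Chil3 and Ly6c2 declines was not tested.

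Retnla encodes RELMα, a secreted protein induced by interleukin 4 and interleukin 13. It held 33.4, 47.9, 16.3 and 12.3 CPM at baseline and 60.4, 49.3, 109.6 and 52.9 CPM at D0 in immature mice. In mature mice it held 21.5, 11.3, 13.5 and 28.4 CPM at baseline and 29.2, 44.5, 32.5 and 80.4 CPM at D0. The D0 libraries lay above all baseline libraries at both ages, but the log2 fold change did not pass the test, with 1.31 ± 0.60 (adjusted p = 0.161) in immature and 1.33 ± 0.61 (adjusted p = 0.118) in mature mice. At 2dpr the log2 fold change was 0.24 (95% interval -0.98 to 1.46) in immature and -0.10 (-1.34 to 1.14) in mature mice, while Arg1 was near its peak. In immature mice Retnla was lower than baseline at 5dpr, with 7.77, 8.76, 2.01 and 5.21 CPM (-2.28 ± 0.66, adjusted p = 0.00793), and the mature change was -0.90 ± 0.68 (adjusted p = 0.325). At 14dpr, replicate 2 in immature mice held 66.2 CPM and the other 3 held 10.8 to 12.3 CPM. Adipocyte markers, of which 7 were listed, summed to 632 to 1230.3 CPM at baseline and 1514 to 2599 CPM at D0 in immature mice. In mature mice they summed to 914 to 1757 CPM and 1591 to 2645 CPM. Their part in the Retnla level was not tested. Of the relatives of Retnla, the adipocyte gene Retn also had its highest mean at D0 at both ages (in immature mice 128 ± 15.6 CPM, against 73.9 ± 20.1 CPM at baseline), and the neutrophil gene Retnlg held 171 ± 56.5 and 244 ± 120 CPM at baseline and 54.2 ± 17.3 and 53.8 ± 32.4 CPM at 14dpr, in immature and mature mice (SD, n = 4).

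To see which members moved beyond the general rise of macrophage transcripts, each was expressed relative to a score, the mean log2 CPM of 12 other macrophage genes (among them Csf1r, Cd14, Fcgr1, Lyz2, C1qa and Ctss). The score rose from 5.90 ± 0.23 at baseline to 8.51 ± 0.07 at 2dpr and stood at 7.92 ± 0.19 at 14dpr in immature mice (SD, n = 4), and from 6.39 ± 0.33 to 8.56 ± 0.25 and 8.09 ± 0.18 in mature mice. All 12 of its genes were higher than baseline at 2dpr at both ages and 11 of 12 at 14dpr. The furthest at 2dpr were Fcgr1, a high-affinity antibody receptor (4.90 ± 0.30 and 4.65 ± 0.29), and Cd14, a receptor for bacterial lipopolysaccharide (4.60 ± 0.34 and 4.17 ± 0.33), and at 14dpr Cd14 (4.53 ± 0.34 and 4.11 ± 0.33) and the lysosomal protease gene Ctss (3.24 ± 0.24 and 2.57 ± 0.23). Relative to this score, Cd68 and Adgre1 had mean log2 ratios within 0.46 of baseline at 2, 5 and 14dpr. The Arg1 ratio was 8.08 above baseline at 2dpr and 3.70 above it at 14dpr in immature mice, against 8.40 and 3.70 in mature ones. The Nos2 ratio was 0.23 above baseline at 2dpr and 0.32 above it at 14dpr in immature mice, less than its baseline SD of 0.53, whereas mature mice had 2.60 and 1.78. The immature Mrc1 ratio differed from baseline by -0.55 at 2dpr and by -0.65 at 14dpr, and the mature one by -0.23 and -0.41. The Chil3 ratio lay furthest below baseline, with differences of -4.42 and -4.49 at 14dpr, followed by Ly6c2 with -3.48 and -3.98 and Retnla with -2.45 and -2.72. These are descriptions of the ratio, with no test over stages.

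**Figure D4:**
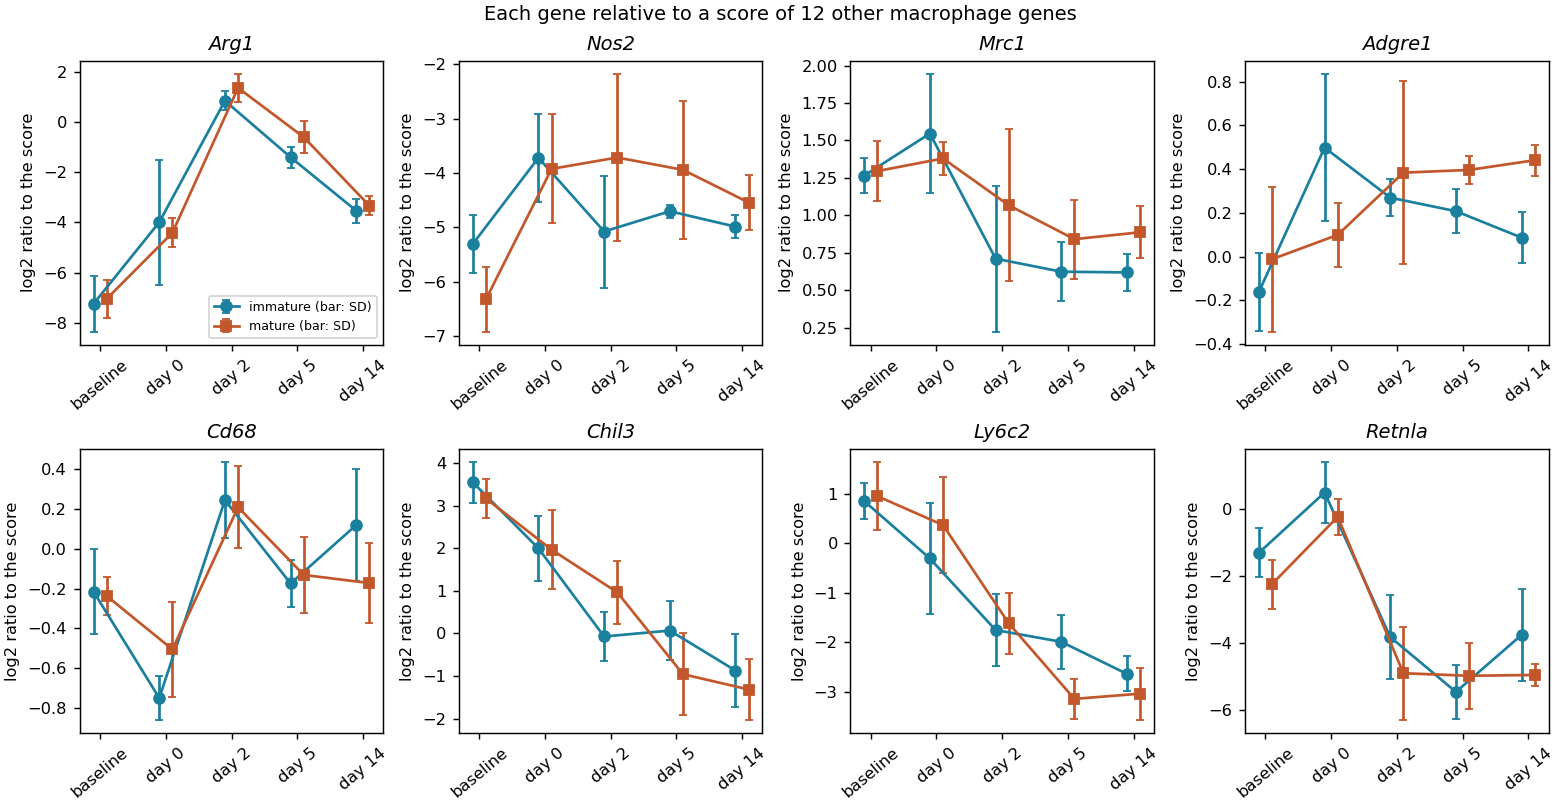
Each of the 8 genes as a log2 ratio to the mean of 12 other macrophage genes (vertical axis, mean with SD) at baseline and on days 0, 2, 5 and 14, for immature (circles) and mature (squares) mice. The Arg1 ratio peaks on day 2, those of Chil3 and Ly6c2 go down from baseline, and Cd68 and Adgre1 stay within 1 unit of 0 throughout.

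The ages were then compared at each stage. No member passed the edgeR test at any of the 5 stages (0 of 40 tests), nor by DESeq2, and 10 of 40 had an unadjusted p under 0.05, as did 9.07% of the tests over all genes at these stages. Over all genes, 0.585% passed at baseline, 0.726% at D0, 0.627% at 2dpr, 0% at 5dpr and 0.00943% at 14dpr. The smallest adjusted p was that of Nos2 at 2dpr, 3.34-fold lower in immature mice (13.4 ± 11.2 against 44.9 ± 49.8 CPM, SD, n = 4). The log2 fold change was -1.74 ± 0.56 (95% interval -2.87 to -0.61, adjusted p = 0.142), and without mature replicate 4 it was -0.60 (adjusted p = 0.558). It passed without immature replicate 3 (-2.50, adjusted p = 0.0478) or mature replicate 2 (-2.08, adjusted p = 0.0414), and with the muscle score as a covariate (-2.03, adjusted p = 0.0498). DESeq2 gave an adjusted p of 0.0626. At 5dpr, Nos2 differed by -1.52 ± 0.59 (adjusted p = 0.769). Adgre1 was lower in immature mice at 14dpr (212 to 325 against 328 to 445 CPM, -0.51 ± 0.22, adjusted p = 1). It was also lower at 5dpr (226 to 326 against 330.4 to 466 CPM, -0.48 ± 0.24, adjusted p = 0.989) and at baseline (-0.72 ± 0.23, adjusted p = 0.158). Mrc1 was lower in immature mice at baseline (-0.58 ± 0.23, adjusted p = 0.285) and at 5dpr (-0.53 ± 0.24, adjusted p = 0.946). Ly6c2 was higher in them at 5dpr (44.7 to 84.8 against 26.2 to 42.8 CPM, 0.88 ± 0.50), without passing the test. Arg1 at 2dpr differed by -0.58 (95% interval -1.74 to 0.58) and at 14dpr by -0.36 (-1.58 to 0.87). At D0 the Arg1 difference was 2.24 ± 0.77 (adjusted p = 0.197) with all libraries and turned to -1.21 (adjusted p = 0.702) without immature replicate 1. Retnla at 14dpr was 2.84-fold higher in immature mice (95% interval on the log2 scale 0.21 to 2.80, adjusted p = 1), and its log2 fold change was 0.36 without immature replicate 2. Cd68 had 95% intervals of -0.47 to 0.36 at 2dpr and -0.31 to 0.52 at 14dpr, whereas at baseline its level was lower in immature mice (-0.48, 95% interval -0.90 to -0.06, adjusted p = 0.349). Chil3 at 2dpr was -1.06 ± 0.49 (adjusted p = 0.338).

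**Figure D5:**
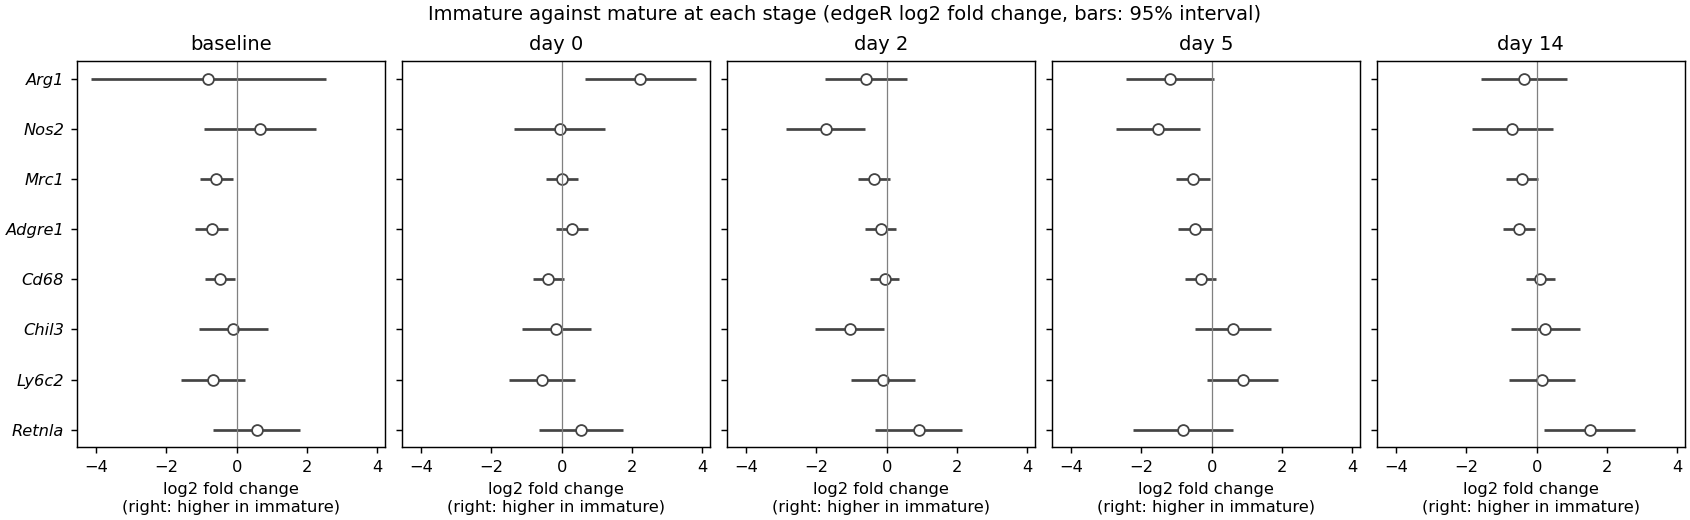
Immature against mature mice at each of 5 stages for the 8 genes (edgeR log2 fold change on the horizontal axis, right of 0 for higher in immature mice, with 95% intervals). No difference passed the threshold after adjustment over all genes; the widest interval is that of Arg1 at baseline, and those of Cd68, Adgre1 and Mrc1 are the narrowest.

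The change over time did not differ between the ages past the threshold for any member (0 of 24 tests by edgeR, also 0 by DESeq2, and 2 with an unadjusted p under 0.05, beside 8.51% of these tests over all genes). Over all genes, 0.00943% passed for 2dpr against baseline, 0% for 5dpr against 2dpr and 0.0472% for 14dpr against baseline. The rise of Nos2 to 2dpr differed by -2.41 ± 0.96 (adjusted p = 0.415) and the fall of Chil3 from 2 to 5dpr by 1.66 ± 0.72 (adjusted p = 0.577). The ratios to the macrophage score were compared between ages by exact two-sided permutation tests, of which 1 of 40 had p under 0.05. The 8 tests at 5dpr, with 4 against 3 libraries, could not go below 0.0571, and with so few libraries the adjustment over the 40 could hardly be passed. The test with p under 0.05 was Adgre1 at 14dpr, with a difference of -0.35 (exact p = 0.0286, the smallest possible with 4 against 4, adjusted p = 0.38).

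Other genes of the same pathways came from lists chosen by function. Their counts at 2dpr stand beside shares over all genes of 18.7% higher and 18.6% lower in immature and 19.3% higher and 20.8% lower in mature mice. Of 13 monocyte recruitment genes, 10 were higher and 2 lower at 2dpr than at baseline in immature mice, and 9 higher and 1 lower in mature mice. The chemokines Ccl2 (log2 fold change 8.28 ± 0.43 and 9.02 ± 0.44, in immature and mature mice) and Ccl7 (8.05 ± 0.49 and 9.07 ± 0.50), which draw monocytes through the receptor Ccr2, rose most at 2dpr, and Nr4a1, a factor of patrolling monocytes, fell (-1.48 ± 0.40 and -1.84 ± 0.40). At 14dpr, Ccl7 (4.98 ± 0.47 and 5.90 ± 0.47) and Ccl2 (5.12 ± 0.41 and 5.49 ± 0.41) were also higher than baseline. The list's median at 2dpr was 2.19 and 1.69, against medians of all genes of -0.05 and -0.06.

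Of 16 genes of classical activation, 12 were higher than baseline and none lower at 2 and at 14dpr, at both ages, with medians of 2.21 and 1.76 at 2dpr. The furthest were Acod1, which makes itaconate (7.51 ± 0.70 and 4.20 ± 0.51 at 2dpr, 8.05 ± 0.70 and 4.67 ± 0.52 at 14dpr), and Ptgs2, the inducible cyclooxygenase (4.45 ± 0.45 and 5.05 ± 0.45, then 4.98 ± 0.46 and 5.37 ± 0.46). Of 20 genes of alternative activation other than the members, 10 were higher and 1 lower at 2dpr in immature and 12 higher and 4 lower in mature mice (medians 1.06 and 1.33). The scavenger receptor gene Msr1 (5.33 ± 0.31 and 5.40 ± 0.31) and the cytokine gene Il10 (4.50 ± 0.79 and 4.07 ± 0.71) led at 2dpr, and Irf4, a factor of that state, was lower (-1.38 ± 0.24 and -1.77 ± 0.24). Of 7 B cell markers, 7 were lower at 2dpr in immature and 6 in mature mice (medians -3.24 and -3.42). The part of B cells in the Irf4 change was not tested. At 14dpr, Ccl22 (4.07 ± 0.56 and 4.47 ± 0.58) and Msr1 (3.55 ± 0.29 and 3.54 ± 0.29) led, whereas Cd163, a haemoglobin receptor of resident macrophages, was lower (-1.74 ± 0.32 and -0.85 ± 0.31). Chil4 was also lower, but on few reads (13 at baseline and 0 at 14dpr over the immature libraries).

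The interleukin 4 and 13 list had 10 of its 11 genes in the filtered table, and the absent gene was Il13 itself. Of those 10, 5 were higher and none lower at 2dpr at both ages (medians 0.93 and 1.05). Il4ra, the shared receptor chain, led at 2dpr (3.23 ± 0.22 and 3.08 ± 0.22) together with the alarmin gene Il33 (adjusted p = 8.42e-09 and 3.89e-09), and at 14dpr Il13ra1 (2.08 ± 0.18 and 2.22 ± 0.18) and Il33 (1.65 ± 0.28 and 1.72 ± 0.28) did. Eosinophils are a source of interleukin 4. In immature mice, 7 markers of these cells summed to 565 to 1129 CPM at baseline and 58.1 to 419 CPM at 2dpr. Mature mice had 408 to 2510 CPM and then 32.5 to 142 CPM. At 14dpr, 6 of the 7 were lower than baseline in immature and 7 in mature mice (medians -2.24 and -3.53). Over all genes, 15.1% and 16.4% were lower at that stage. Of 15 other genes of arginine handling, 6 were higher and 2 lower at 2dpr in immature and 5 and 2 in mature mice (medians 0.47 and 0.04). Ass1, which recycles citrulline to arginine (2.11 ± 0.46 and 1.64 ± 0.45), and Ddah1, which degrades methylated arginine (1.34 ± 0.26 and 1.70 ± 0.26), rose most at 2dpr. Nos1, the neuronal synthase found in muscle, fell (-2.19 ± 0.32 and -2.35 ± 0.32). At 14dpr the furthest were Ddah1 (2.16 ± 0.26 and 3.46 ± 0.27), Ddah2 (1.22 ± 0.21 and 1.60 ± 0.21), Nos1 (-2.99 ± 0.34 and -2.04 ± 0.32) and Gatm, which makes the creatine precursor (-0.80 ± 0.16 and -1.09 ± 0.16). Arg2, the mitochondrial relative of Arg1, held 3.35 ± 1.02 CPM at baseline and 5.54 ± 2.36 CPM at 2dpr in immature mice, and 6.30 ± 2.45 and 9.61 ± 8.49 CPM in mature mice (SD, n = 4).

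Between the ages, 4 of 425 tests passed in the macrophage, recruitment, activation, interleukin and arginine lists (85 genes at 5 stages), beside 0.585%, 0.726%, 0.627%, 0% and 0.00943% of all genes from baseline to 14dpr. At baseline Il1b (-2.26 ± 0.44, adjusted p = 0.009) and Acod1 (-3.71 ± 0.76, adjusted p = 0.0121) were lower in immature mice, at D0 Cish, a target of cytokine signalling, was higher (1.58 ± 0.37, adjusted p = 0.0294), and at 2dpr Ddah2 was higher (0.89 ± 0.21, adjusted p = 0.0357). In the lists of other cell types, Ighm of B cells was lower at baseline (-1.99 ± 0.42) and D0 (-3.05 ± 0.44) and Mb of muscle was higher at 2dpr (1.13 ± 0.28).

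Over all 39 libraries, the genes most like each member were found by Pearson's r of log2 CPM among 16091 genes with a mean of at least 1 CPM, as a description over libraries that share stages. Cd68 was most like Ifi30 (0.992), Lgals3 (0.989) and Gla (0.985). Adgre1 was nearest to Ms4a6d (0.976), Cd200r1 (0.976) and C1qb (0.975), and Mrc1 to Cltc (0.974), Ctsc (0.973) and Slc9a9 (0.971). Arg1 followed the chemokine genes Ccl7 (0.965) and Ccl2 (0.965) and the receptor gene Msr1 (0.961). Nos2 had its nearest genes in Adam9 (0.91), Rab11fip5 (0.885) and Ptx3 (0.88). Chil3 and Ly6c2 shared the same 2 nearest other genes, Treml2 (0.906 and 0.924) and Dna2 (0.889 with each), and each was among the nearest of the other (0.89). Retnla was most like Mbp (0.762), Prx (0.733) and Insig1 (0.701), lower than for any other member, and the first 2 of these encode myelin proteins. Among the members themselves, the closest pairs were Mrc1 with Adgre1 (0.96) and Adgre1 with Cd68 (0.952), whereas Arg1 and Chil3 had an r of -0.135 and Arg1 and Retnla of -0.364.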

How the data were processed

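Composite rib tissue and callus of 40 samples in 10 groups were profiled by bulk RNAseq (TruSeq stranded libraries, 150 bp paired-end reads, sequenced in separate runs that the labels do not assign to libraries, so that a run effect cannot be told apart). Mapping and counting per gene were done by the authors with STAR 2.5.2a against GRCm38, and their processing notes also name edgeR, limma and DESeq2; the strand setting of the counting is not given in the sources used here. The deposited counts were not normalized; they fill a table of 48733 rows and a filtered one of 21204, with equal counts where both hold a gene. The deposited normalized signal is CPM after TMM scaling, equal to edgeR's to a relative difference of 5e-15, and was used for gene names. Mature 5dpr replicate 2 was not analysed here. The filtered table has 1 row that names no mouse gene (at most 0.00223% of a library) and was left in.

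Counts were fitted in R 4.3.3 with edgeR 4.0.16 (TMM, quasi-likelihood F test, 1 coefficient per group, all 39 libraries), with Benjamini-Hochberg adjustment over 21204 genes and a threshold of 0.05. The muscle score is the mean log2 CPM of the 20 muscle markers. Log2 CPM used a prior count of 2. Standard errors are those implied by the F statistic. Ratios to the macrophage score were tested in Python 3.11.15 with SciPy 1.17.1 by exact two-sided permutation, with a smallest p of 0.0286 for 4 against 4 and 0.0571 for 4 against 3. Intervals from counting cover counting error only. Named genes were the 8 members, the 3 genes most like each, in each list the 2 genes furthest up and down at 2 and at 14dpr among those past the threshold at both ages, list genes that differed between ages, and the close relatives Ly6c1, Chil4, Retnlg, Retn and Arg2; an item the rule names is not reported here. The members and lists were chosen with earlier results of these data known.

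Alternatives were RLE size factors, DESeq2 1.42.0, no filter, edgeR's own filter, a fit of the compared libraries alone, the replicate number as a block, a muscle score as covariate, D0 as the reference, each library left out, and other denominators, prior counts and summaries. On simulated counts for 2dpr against baseline in immature mice (21204 genes, 200 changed), the test recovered 54% of 2-fold and 83% of 4-fold changes, with 7 unchanged genes among 144 calls. Libraries of a group differed by at least 6.38 times the counting variance, so that none was the same library sequenced again. Separate libraries from the same mouse would not be found in this way.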

Additional observations from a re-analysis of the deposited data

Results flagged for a closer look

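In 4 of the 72 groups of 4 libraries tested (8 genes in 9 groups), a single library lay further from the others than Dixon's 95% limit allows; chance flags about 1 in 20 groups. Arg1 stood at 42.7 CPM in immature D0 replicate 1, against 0.863 to 1.09 CPM in the other 3. Chil3 stood at 561 CPM in mature D0 replicate 2, against 119 to 181 CPM. Retnla stood at 66.2 CPM in immature 14dpr replicate 2, against 10.8 to 12.3 CPM. Adgre1 stood at 398 CPM in mature 2dpr replicate 4, below the 527 to 537 CPM of the others, and this is the same library in which Nos2 was highest (118 CPM).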

How the results depend on the processing

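In every fit that left out a library, Cd68, Adgre1, Mrc1, Arg1 and Nos2 stayed higher than baseline at 2, 5 and 14dpr at both ages. The number of the 8 genes called otherwise moved as follows. For D0 against baseline in immature mice it was 3 with all libraries, 0 with only the libraries compared, and 1 to 4 when 1 library was left out. In mature mice it was 5, then 0 with the muscle score as a covariate, and 1 to 6 when 1 library was left out. For 14dpr against baseline in immature mice it was 7, and 3 with D0 as the reference. For 5dpr against 2dpr it was 4 at each age, with 2 to 4 in immature and 0 to 5 in mature mice when 1 library was left out, and 0 in mature mice with the muscle score. For 14dpr against 5dpr in immature mice it was 1, with 0 under RLE size factors, 2 without the filter, 2 with only the libraries compared, and 0 when any library was left out, and in mature mice 0 to 1 when 1 library was left out. Between ages it was 0, with 1 at 2dpr under the muscle score (Nos2), 0 to 1 at D0 and 0 to 1 at 2dpr when 1 library was left out. The Arg1 age difference at D0 ran from -1.21 to 2.66 when 1 library was left out. With D0 as the reference, Chil3 at 5dpr in immature mice changed by 0.23 in place of a fall. The causes were not tested. The share of the Nos2 rise left in immature mice was 95.6% at 5dpr and 72.9% at 14dpr from medians in place of means, and that of Arg1 at 14dpr was 1.58% with D0 as the reference.

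Replicate numbers did not pair the libraries: over 154 pairs with the same number the deviations from group means correlated by 0.00847 on average (-0.158 to 0.297), and 8 of 39 libraries were closest to one of their own number. With the replicate number as a block, 2 of the 4 immature calls for 5dpr against 2dpr remained, 802 in place of 2257 genes were called at D0 in immature mice, and Ly6c2 at 14dpr in immature mice changed by -1.23 (adjusted p = 0.0676).

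Over all genes, the muscle score lowered the calls against baseline from 2257 to 996 at D0, 7911 to 2207 at 2dpr, 6237 to 2803 at 5dpr and 6667 to 1742 at 14dpr in immature mice, and from 4775 to 237 at D0 and 8488 to 3753 at 2dpr in mature mice, and from 3084 to 1545 for 5dpr against 2dpr in mature mice. With only the libraries compared, the immature calls were 48 at D0, 2988 (1707 with all libraries) for 5dpr against 2dpr and 1875 (674) for 14dpr against 5dpr, and the mature ones 4981 at 2dpr, 714 for 5dpr against 2dpr and 2589 (886) for 14dpr against 5dpr. DESeq2 called 1029 and 1386 genes for 14dpr against 5dpr. Between ages, edgeR called 124, 154, 133, 0 and 2 genes from baseline to 14dpr, DESeq2 called 334, 349, 428, 33 and 32, and edgeR with only the libraries compared called 471, 0, 4, 6 and 5. The muscle score gave 63 at baseline and 286 at 2dpr, and no filter gave 5 at 14dpr. For the interactions of age with 2dpr against baseline, 5dpr against 2dpr and 14dpr against baseline, edgeR called 2, 0 and 10, DESeq2 59, 36 and 59, and the muscle score 35, 6 and 6. The first interaction had 4 calls without the filter, 13 with D0 as the reference and 0 with edgeR's own filter, the block or only the libraries compared, and the third had 6 with RLE, 42 with D0 as the reference and 180 with only the libraries compared. Under RLE and DESeq2 scaling, the median log2 fold change of all genes reached -0.121 and -0.123, in mature mice at 2dpr against baseline. In the main fit, the median of that comparison was -0.0586. Depth limits Arg1 at baseline, where 10 reads in immature and 19 in mature mice stand behind its mean.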
